A study of Mus musculus with 40 samples.

Results

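The 59 genes described here encode proteins that build the mitotic spindle, attach chromosomes to it, release the sister chromatids and divide the cell. They were chosen by name for these roles, with earlier results of these data known. They make up 59 of the 55536 genes in the deposited count tables, and all passed the filter on low counts in every comparison. The mRNA was measured in mouse embryonic stem cells (mESCs), pluripotent cells derived from the early embryo. There were 2 biological replicates of WT cells, 3 clones with a knockout of *Ccnc* (D1, G2, H5) and 3 with a knockout of *Cdk8* (clone names B9, H4, C8). Each received either AZD6738, an inhibitor of the ATR kinase (ATRi), at 900 nM, or its solvent DMSO, for 4 h. *Ccnc* encodes Cyclin C and *Cdk8* its partner kinase, both parts of the CDK8 kinase module of the Mediator complex, and each KO clone is a separate line. The WT replicates and the clones are called lines in what follows. No sorting by cell cycle stage is named in the methods, so that in these bulk samples more cells in mitosis and more mRNA per mitotic cell cannot be told apart.

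In dividing cells the genes of mitosis are transcribed together late in the cycle. The MuvB complex, joined by B-MYB and FOXM1, binds their promoters at the cell cycle genes homology region (CHR, TTTGAA) and acts with NF-Y at CCAAT boxes, and the same complex in its repressive form keeps them silent earlier in the cycle. ATR and its effector CHK1 restrain CDK1 during S phase, and this restraint also delays the activation of FOXM1 and hence of the mitotic genes until replication has ended. The methods chose the 4 h treatment by the mRNA of *Ccnb1*, a member of the list, and the study had examined mitotic gene classes in these libraries, so the list is not independent evidence of its own direction.

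Most promoters found for the list held the letters of the CHR and of the CCAAT box. RefSeq promoter windows (GRCm38.p6, 250 bases before to 50 after the start) were found for 51 of the 59 genes, and not for *Aurkb*, *Spc24*, *Incenp*, *Kif20a*, *Tpx2*, *Dlgap5*, *Cdca2* and *Foxm1*. Searched on both strands, TTTGAA occurred in 35 of the 51 genes (68.6%) and in 20.2% of all 27025 genes with a window. CCAAT, whose letters can overlap those of TTTGAA by at most 1 base, occurred in 38 (74.5%) and in 41.1% of all genes, and both together in 30 (58.8%) and in 7.97%. TTTGAA starting within 50 bases of the annotated start was found in 30 genes (58.8%) against 5.72% of all genes. The E2F letters TTTGGCGC were present in 3 of the 51 genes and 0.585% of all, TTTCCCGC in 0 of 51 and 1.24%, and the forkhead letters GTAAACA in 3 of 51 and 4.05%. A match describes the letters of the window and is not evidence that a protein binds there.

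Windows of 7 genes are shown from 150 bases before to 25 bases after the start, 5′ to 3′ on the coding strand, because they belong to the 5 genes with the largest called changes under ATRi and to the B-type cyclins. Capitals mark TTTGAA or its reverse complement TTCAAA, and CCAAT or its reverse complement ATTGG. The windows are those of *Mki67* (chr7:135716355-135716529, minus strand), *Aspm* (chr1:139454623-139454797, plus strand), *Cenpf* (chr1:189688062-189688236, minus), *Hmmr* (chr11:40733413-40733587, minus), *Cdc20* (chr4:118437319-118437493, minus), *Ccnb2* (chr9:70421530-70421704, minus) and *Ccnb1* (chr13:100786462-100786636, minus).
Mki67: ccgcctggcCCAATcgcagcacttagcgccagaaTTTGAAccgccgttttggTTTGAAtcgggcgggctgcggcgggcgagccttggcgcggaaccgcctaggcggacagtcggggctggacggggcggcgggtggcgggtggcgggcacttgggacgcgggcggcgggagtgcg
Aspm: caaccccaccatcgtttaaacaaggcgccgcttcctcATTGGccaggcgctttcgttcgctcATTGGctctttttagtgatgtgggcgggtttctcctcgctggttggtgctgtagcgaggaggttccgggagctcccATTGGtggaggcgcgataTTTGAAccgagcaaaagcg
Cenpf: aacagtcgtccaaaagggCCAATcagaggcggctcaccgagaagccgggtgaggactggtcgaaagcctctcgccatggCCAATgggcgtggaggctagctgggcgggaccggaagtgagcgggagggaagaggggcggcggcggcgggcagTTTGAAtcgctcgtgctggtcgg
Hmmr: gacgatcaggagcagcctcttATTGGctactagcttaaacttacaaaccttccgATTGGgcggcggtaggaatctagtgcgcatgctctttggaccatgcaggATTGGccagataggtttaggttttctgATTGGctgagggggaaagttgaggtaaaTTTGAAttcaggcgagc
Cdc20: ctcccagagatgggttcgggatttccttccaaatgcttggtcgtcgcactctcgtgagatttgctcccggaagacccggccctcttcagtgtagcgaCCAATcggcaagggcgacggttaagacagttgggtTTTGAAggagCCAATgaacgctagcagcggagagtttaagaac
Ccnb2: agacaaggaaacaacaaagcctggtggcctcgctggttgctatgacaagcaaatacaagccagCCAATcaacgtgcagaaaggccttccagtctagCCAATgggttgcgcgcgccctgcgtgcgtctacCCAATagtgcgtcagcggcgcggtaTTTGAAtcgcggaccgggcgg
Ccnb1: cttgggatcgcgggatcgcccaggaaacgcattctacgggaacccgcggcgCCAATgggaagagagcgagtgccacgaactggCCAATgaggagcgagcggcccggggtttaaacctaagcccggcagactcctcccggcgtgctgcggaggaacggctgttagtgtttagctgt
In *Aspm*, *Cenpf*, *Hmmr* and *Ccnb2* the TTTGAA lay just after the start, at positions 7, 3, 9 and 5 (position 1 is the first transcribed base), with CCAAT boxes upstream of it. In *Cdc20* it lay 18 bases before the start between 2 CCAAT boxes. *Mki67* had a pair of TTTGAA further upstream, at -116 and -98. *Ccnb1* had CCAAT at -99 and -67 and no TTTGAA in its 300-base window.

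**Figure D1:**
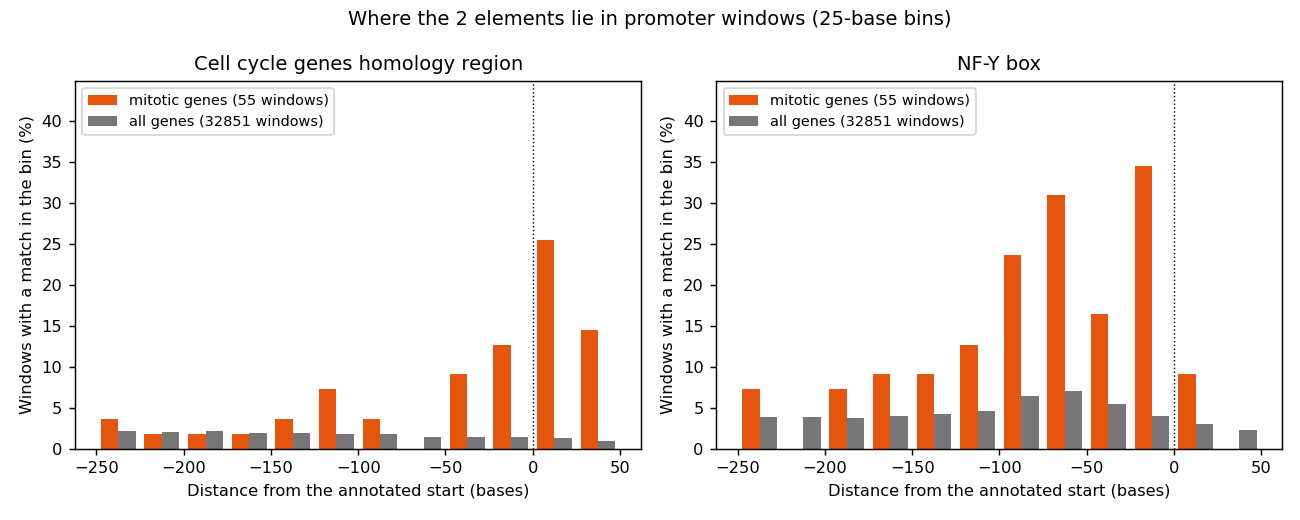
Percentage of promoter windows (y axis) with a match to the CHR (left) or the NF-Y box (right) starting in each 25-base bin of distance from the annotated start (x axis), for the 55 windows of the mitotic genes (orange) and all 32851 windows (grey). In the mitotic genes matches to the CHR were most frequent in the first 25 bases after the start (25.5% of windows against 1.31%), and those to the NF-Y box in the 25 bases before it (34.5% against 4.05%).

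Library totals ranged from 30899823 to 67274049 counts (median 41972557, 20 libraries), and the WT libraries, sequenced in both multiplexes, were summed where all lines were compared. In CPM (counts scaled to the TMM-normalized library size), *Ccnc* lay at 4.26 to 7.38 in the *Ccnc* KO libraries and 41.2 to 47.9 in WT, whereas *Cdk8* lay at 52.7 to 64.2 in the *Cdk8* KO libraries and 59.3 to 78.1 in WT, which overlap, so that the mRNA level does not check the *Cdk8* KO label. The 10 stem cell markers summed to 3460 to 5120 CPM over all groups. The 10 fibroblast markers summed to 9.75 to 30.3 CPM, with 5 or 6 of them under 1 CPM throughout their group, and the 8 neuroectoderm markers to 36.5 to 121 CPM. WT replicate 2 under ATRi, which the study set aside, differed from WT replicate 1 under ATRi far more than the WT DMSO pair did (chi-square per degree of freedom 158 against 22.3) and is left out except where it is named. The WT ATRi group then holds 1 library, whose spread is taken from the other groups. The p-values measure the spread between these samples.

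Per kilobase of exon, the list spanned a wide range of levels. *Cdc20*, the activator of the anaphase-promoting complex, stood highest with a mean of 286 CPM per kb over all 16 libraries, followed by *Ccnb2*, a B-type cyclin that activates CDK1, at 170 and *Top2a*, the topoisomerase that untangles sister chromatids, at 162. The highest members of the other roles were *Gtse1*, a microtubule plus-end protein, at 128, *Kif20a*, the kinesin of the central spindle, at 107, *Incenp*, the scaffold of the chromosomal passenger complex, at 91.8, *Ect2*, the activator of RhoA at the cleavage furrow, at 52.2, and *Cenpa*, the histone H3 variant of centromeres, at 37.7. *Nek2*, a centrosome kinase, and *Kif11*, the kinesin that pushes spindle poles apart, had very low counts by comparison (0.362 and 0.631 CPM per kb, with 0.642 to 2.48 and 3.1 to 6.52 CPM in the 16 libraries). Why the counts of *Nek2* and *Kif11* were low was not tested. For these last genes the low counts make the changes below imprecise.

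Under ATRi many of the genes rose slightly. With genotype in the model, 20 of 59 genes rose and 0 fell (edgeR quasi-likelihood test, adjusted p under 0.05), whereas 2.05% of the 19066 genes tested rose and 2.48% fell. The log2 fold changes of the 20 genes lay between 0.13 and 0.44, that is 1.09-fold to 1.36-fold. The median over the 59 genes was 0.10 (quartiles 0.04 and 0.17) and over all genes tested 0.007, and 53 of 59 were above 0 against 51.8% of all genes. Because the DMSO and ATRi libraries of a clone come from the same cell line, the test was also run with the line as a block. It gave 28 genes raised and 1 lowered, with 6.27% and 7.14% of all genes, and all 20 genes of the first test were among them. Without the DMSO library of WT replicate 2 it gave 25 and 1, with 944 and 1531 of all 18875 genes. The count of 20 depended on single lines: 6 were called without G2 (1.73% of all genes), 6 without WT replicate 1 (1.07%; *Top2a* among them, as lowered), 11 without H5 (1.59%), 12 without B9 (3.07%), and 11 with WT replicate 2 under ATRi included (3.26%; 10 raised and *Top2a* lowered). With RLE or upper quartile scaling 17 rose and *Top2a* fell (4.44% and 4.42% of all genes called). Without any test, 23 of the 59 genes were higher under ATRi in each of the 7 lines (7.28% of all genes) and 1, *Top2a*, was lower in each (6.77%).

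*Mki67*, which encodes the Ki-67 protein that coats mitotic chromosomes, changed most. From DMSO to ATRi it went from 211 to 307 CPM in WT replicate 1, from 213 to 249 in D1, 158 to 278 in G2, 193 to 256 in H5, 228 to 275 in B9, 214 to 304 in H4 and 211 to 311 in C8. Every line rose, while the levels of the DMSO and ATRi libraries overlapped because WT replicate 2 in DMSO stood at 263. The log2 fold change was 0.44 ± 0.06 (SE; edgeR, adjusted p = 0.000941, and 0.000115 with the line as block).

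*Aspm*, which focuses microtubules at the spindle poles, went from 111 to 150 CPM in WT replicate 1, 90.4 to 119 in D1, 86.6 to 139 in G2, 108 to 135 in H5, 121 to 146 in B9, 121 to 151 in H4 and 110 to 140 in C8. The gain was present in 7 of 7 lines, largest in G2 (0.68 on the log2 scale) and smallest in B9 (0.27). The log2 fold change over all lines was 0.37 ± 0.06 (edgeR, adjusted p = 0.00244).

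Of the 12 spindle and microtubule genes, 4 rose in the test without the block and 7 with it. *Hmmr*, a microtubule-binding protein of the spindle pole, had a median of 183 CPM in the 8 DMSO libraries (146 to 197) and of 212 in the 7 ATRi libraries (165 to 241), a log2 fold change of 0.24 ± 0.04 (edgeR, adjusted p = 0.00677). It differed by 0.37 in WT replicate 1 but by 0.03 in D1, and with WT replicate 2 under ATRi included (150 CPM, against 185 in DMSO) the change was 0.16 and not called (edgeR, adjusted p = 0.277). *Ckap5*, the microtubule polymerase of the family that also contains XMAP215, rose by 0.19 ± 0.04 (adjusted p = 0.0121, edgeR) and *Ckap2*, a spindle-stabilising protein, by 0.18 ± 0.05 (adjusted p = 0.0365), the latter in 6 of 7 lines. *Gtse1* had a log2 fold change of 0.13 ± 0.04 that missed the threshold without the block (edgeR, adjusted p = 0.0981) and passed it with the block (0.00387), and it was higher in 7 of 7 lines. *Dlgap5* and *Ckap2l*, both of which bind spindle microtubules, were likewise called under the block alone (0.14 ± 0.03 and 0.15 ± 0.05; edgeR, adjusted p = 0.00901 and 0.0467), and *Tpx2*, the activator of Aurora A on the spindle, was not called in either fit (0.12 ± 0.04; 0.0893 and 0.0529). *Dlgap5* was higher in 7 of 7 lines, *Ckap2l* and *Tpx2* in all but D1. *Nusap1*, *Troap*, *Prc1* and *Tacc3*, members of the same role, lay between -0.01 and 0.05 and were not called.

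The cytokinesis genes were the only role with every gene, 4 of 4, raised in each test. *Arhgap11a*, a GTPase-activating protein for RhoA, had a median of 181 CPM in DMSO (158 to 192) and 202 under ATRi (189 to 209), a change of 0.18 ± 0.04 (edgeR, adjusted p = 0.00868). *Ect2* changed by 0.17 ± 0.04 (adjusted p = 0.0184, edgeR), *Anln*, the anillin that links the contractile ring to the membrane, by 0.17 ± 0.04 (adjusted p = 0.027) and *Racgap1*, the centralspindlin subunit that recruits ECT2, by 0.15 ± 0.03 (adjusted p = 0.0123). All 4 were higher in 7 of 7 lines, but *Anln*, *Ect2* and *Racgap1* by only 0.03, 0.02 and 0.03 in D1. With WT replicate 2 under ATRi included *Arhgap11a* (0.13, adjusted p = 0.177, edgeR) and *Ect2* (0.14, 0.094) were not called. Without the block, *Arhgap11a* was not called without G2 (edgeR, adjusted p = 0.0549). *Ect2* was not called without G2, B9, C8, WT replicate 1 or WT replicate 2 (edgeR, adjusted p = 0.051 to 0.135). *Kif23*, the other centralspindlin subunit, is counted with the kinesins and moved with them, from a median of 180 CPM (176 to 198) to 213 (195 to 220), by 0.19 ± 0.03 on the log2 scale (edgeR, adjusted p = 0.00516).

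Among the 10 kinesins all had positive changes, and *Kif23*, *Kif20a* and *Kif14* passed the test, with *Kif4* and *Kif22* added under the block. *Kif20a* went from a median of 421 CPM (411 to 471) to 489 (468 to 517), a change of 0.18 ± 0.04 (edgeR, adjusted p = 0.0111). The libraries overlapped through D1, whose DMSO and ATRi values were 471 and 468. *Kif14*, a motor that acts at the midbody, was at 40.1 to 50.1 CPM in DMSO and 45.5 to 52.7 under ATRi, a change of 0.18 ± 0.05 (edgeR, adjusted p = 0.0467). Under the block the chromosome-bound motors *Kif4* and *Kif22* had 0.13 ± 0.03 and 0.10 ± 0.03 (edgeR, adjusted p = 0.0226 and 0.0368), each with 7 of 7 lines higher. *Kif2c*, which depolymerises microtubules at kinetochores, was also higher in 7 of 7 lines but missed the threshold in both fits (0.09 ± 0.03; edgeR, adjusted p = 0.105 and 0.0713). *Kif15*, *Kif18a* and *Kif20b* had values of 0.09, 0.10 and 0.01, and each was lower under ATRi in D1 (-0.19, -0.14 and -0.27). *Kif11* moved in opposite directions in different lines, from -0.57 in D1 to 0.64 in G2, with a mean of 0.04 ± 0.43 (SD, n = 7).

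At centromeres and kinetochores, 3 of 7 genes rose. *Cenpf*, a large protein of the outer kinetochore that accumulates in G2, had a median of 197 CPM in DMSO (161 to 224) and 240 under ATRi (210 to 250), with a log2 fold change of 0.27 ± 0.05 (edgeR, adjusted p = 0.0051) and a rise in 7 of 7 lines. *Cenpe*, the kinetochore kinesin, changed by 0.18 ± 0.05 (adjusted p = 0.0439, edgeR) and *Cenpa* by 0.16 ± 0.04 (adjusted p = 0.0262). The 4 subunits of the NDC80 complex, which binds microtubules directly, were not called. Their log2 fold changes were 0.04 for *Ndc80*, 0.10 for *Nuf2*, 0.00 for *Spc24* and 0.07 for *Spc25*.

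Of the genes that control anaphase and cohesion, 2 of 7 rose. *Cdc20* went from 508 to 593 CPM in WT replicate 1, 475 to 610 in D1, 476 to 550 in G2, 477 to 572 in H5, 451 to 548 in B9, 517 to 605 in H4 and 471 to 530 in C8. It was the most even of the large changes, between 0.17 and 0.36 in all 7 lines, with a log2 fold change of 0.24 ± 0.04 (edgeR, adjusted p = 0.00514). *Espl1*, the separase that cleaves cohesin, changed by 0.19 ± 0.04 (edgeR, adjusted p = 0.0177), with 0.44 in D1 and 0.02 in H4. *Pttg1*, the securin that holds separase inactive, and *Ube2c*, the ubiquitin-conjugating enzyme of the anaphase-promoting complex, had values of 0.08 ± 0.07 and -0.09 ± 0.06 and were not called. The shugoshins *Sgo1* and *Sgo2a*, which protect centromeric cohesion, and the checkpoint gene *Mad2l1* had 0.01, 0.04 and 0.08, with D1 lowest in each (-0.26, -0.19 and -0.24). *Ube2c* stood at 382 CPM in D1 in DMSO, above the other 7 DMSO libraries (258 to 310), and at 296 in D1 under ATRi.

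Among the 11 cyclins and kinases, 3 rose and 4 did so under the block. *Ccnb2* was at 229 to 255 CPM in the DMSO libraries and at 259 to 296 under ATRi, a change of 0.17 ± 0.04 (edgeR, adjusted p = 0.0147). *Bub1b*, the checkpoint pseudokinase BUBR1, changed by 0.16 ± 0.03 (adjusted p = 0.0137, edgeR) and *Aurka*, the kinase that matures spindle poles, by 0.13 ± 0.03 (adjusted p = 0.0444). *Plk1*, the kinase that drives centrosome maturation and mitotic exit, was called under the block alone (0.12 ± 0.03; edgeR, adjusted p = 0.0224) and higher in 7 of 7 lines. *Ttk* and *Bub1*, kinases of the spindle checkpoint, *Melk* and *Ccnf*, the F-box protein cyclin F, had values from 0.01 to 0.07 and were not called. *Ccnb1*, whose mRNA guided the choice of time, went from 235 to 260 CPM in WT replicate 1, 227 to 218 in D1, 229 to 228 in G2, 229 to 246 in H5, 232 to 245 in B9, 251 to 262 in H4 and 243 to 260 in C8. It was higher in 5 of 7 lines, and its change of 0.07 ± 0.04 was not called (edgeR, adjusted p = 0.332, and 0.255 with the block). Of its 50-base stretches, 23.4% also occur in transcripts of other annotated genes, among them *Ccnb1-ps* and *Gm12856*, so its counts are uncertain. The same share was 10.4% for *Cdc20* and 6.56% for *Plk1*, and at most 4.33% for the other 56 genes. *Nek2* had the widest spread, from -0.53 in C8 to 1.36 in G2, at 0.943 to 2.48 CPM (0.19 ± 0.17; edgeR, adjusted p = 0.594).

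The chromosomal passenger complex had 0 of 3 genes raised without the block, and the remaining genes of chromosome structure, apart from *Mki67*, had 0 of 4. *Incenp*, *Birc5* and *Cdca8*, the subunits grouped here, had log2 fold changes of 0.04, 0.08 and 0.10, of which *Cdca8* passed the threshold under the block (edgeR, adjusted p = 0.0436). *Cdca8* was at 197 to 220 CPM in the DMSO libraries and at 222 to 236 under ATRi. *Aurkb*, the kinase of the complex, was at -0.02 ± 0.03. *Top2a* was the only gene of the list called as lowered with the block, while 53 of the 59 had positive changes. It was lower in 7 of 7 lines, if barely in WT replicate 1 (1540 and 1530 CPM), with a median of 1550 CPM in DMSO (1420 to 1660) and 1420 under ATRi (1290 to 1530), with a log2 fold change of -0.13 ± 0.04 that was not called without the block (edgeR, adjusted p = 0.0559) and was called with it (0.013). *Cdca3*, a trigger of mitotic entry, was called under the block alone (0.11 ± 0.03; edgeR, adjusted p = 0.0252), with 0.13 to 0.18 in 5 lines and 0.01 and 0.03 in D1 and G2. *Cdca2* was at 0.05 ± 0.03. *Foxm1*, the transcription factor of the programme, was at 0.02 ± 0.05 (edgeR, adjusted p = 0.896).

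**Figure D2:**
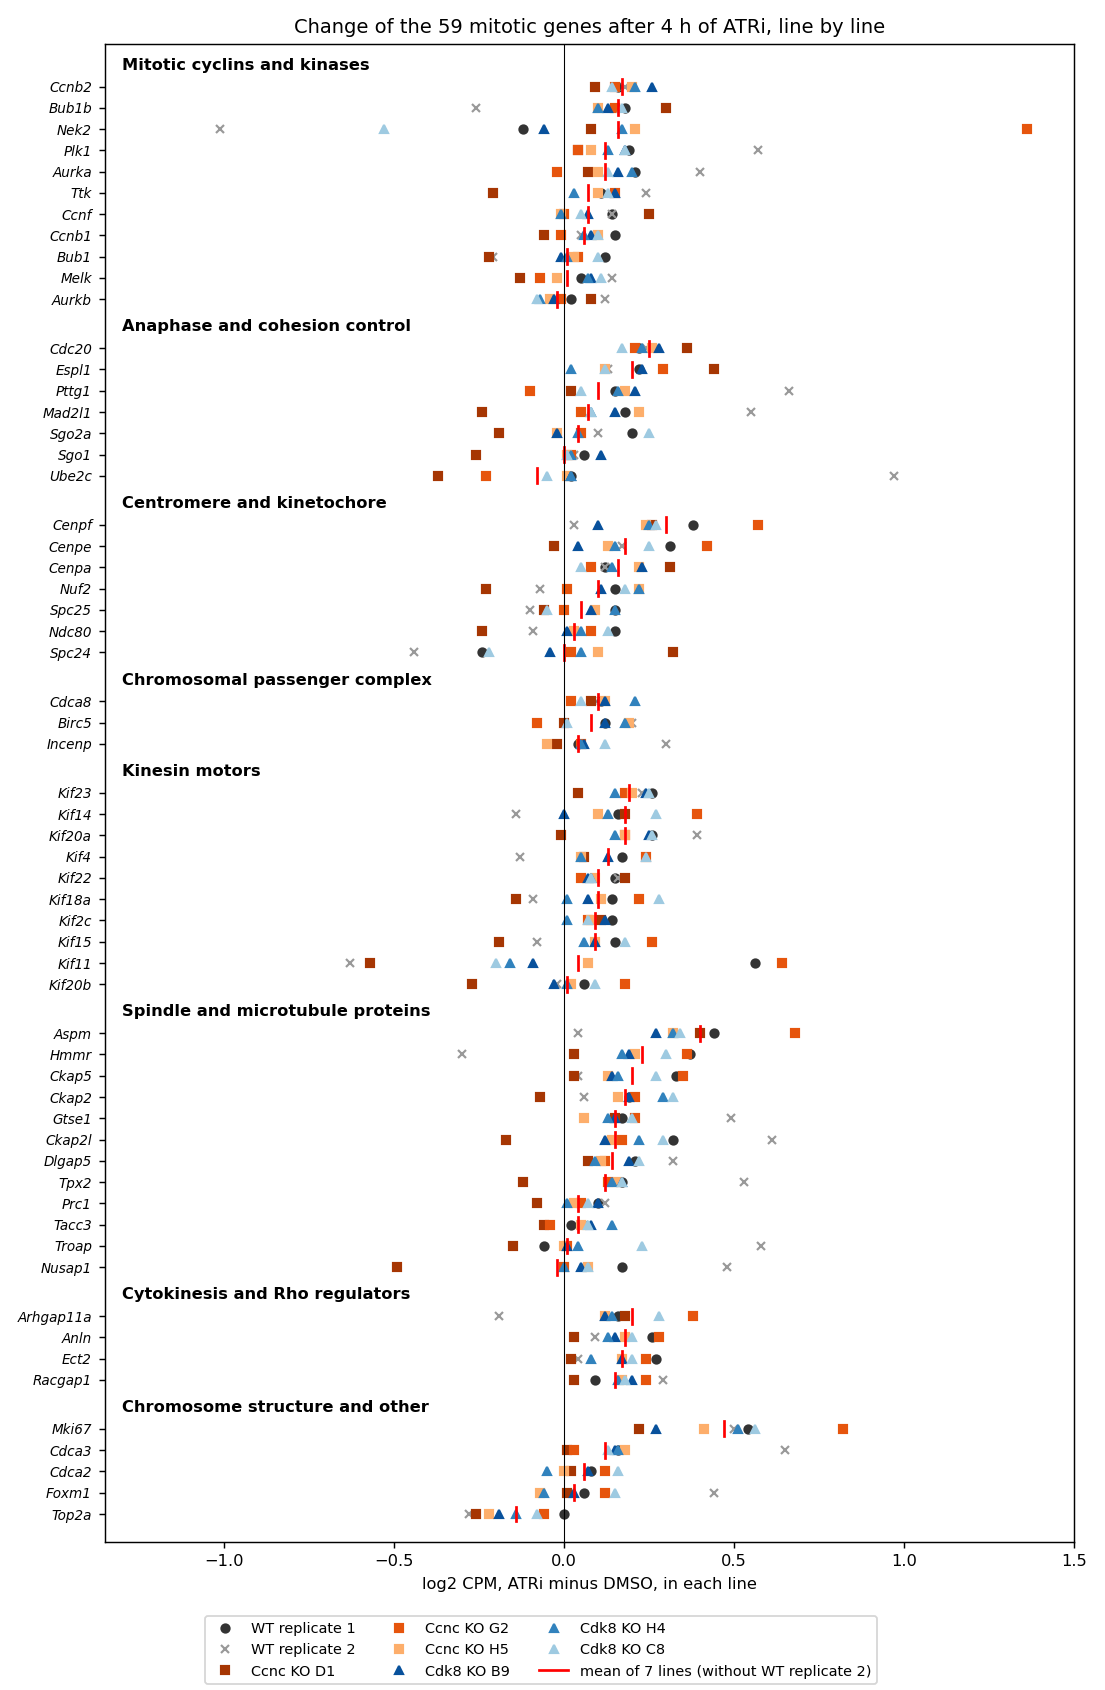
Log2 CPM under ATRi minus DMSO (x axis) of each of the 59 genes (rows, grouped by role) in each line, with the mean of the 7 lines in red. Circles and crosses are WT, squares *Ccnc* KO and triangles *Cdk8* KO. Most points lie to the right of 0, *Mki67* and *Aspm* reach the highest means (0.47 and 0.40), and WT replicate 2 (crosses, not in the mean) scatters further than the others.

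**Figure D3:**
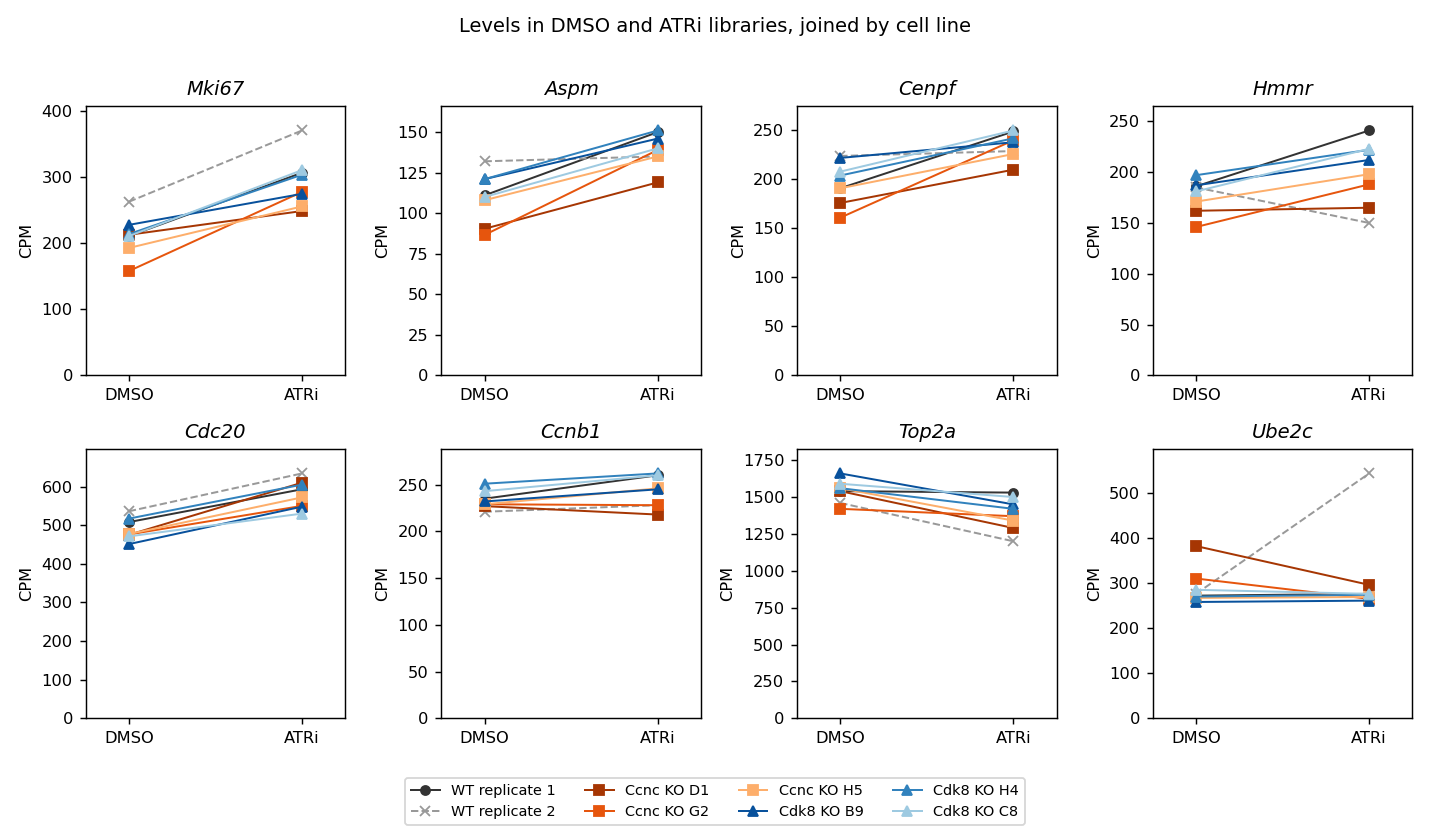
CPM (y axis, from 0) of 8 genes in the DMSO and ATRi libraries of each line, joined by line. *Mki67*, *Aspm*, *Cenpf*, *Hmmr* and *Cdc20* rose in the 7 lines drawn with solid connections, *Ccnb1* rose in 5 of them, *Top2a* fell, and *Ube2c* was level except in D1 and G2 and in WT replicate 2 (dashed).

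Most of the raised genes with a window held the letters TTTGAA in it, counted at any distance from the start. Of the 35 genes with TTTGAA in the window, 18 were raised and the median log2 fold change was 0.15, whereas of the 16 without it 1 was raised and the median was 0.08. For CCAAT the values were 18 of 38 with a median of 0.14, and 1 of 13 with a median of 0.08. These are descriptions with no test. The members also differed in length: the exons of the 20 raised genes had a median total of 6469.5 bases, those of the 39 others 4516 and those of all genes tested 3440. With offsets that remove each library's trend with length and GC content, 27 members were called, among them all 20, and 6.3% of all genes.

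The size of the shift differed between lines. The median change of the 59 genes was 0.15 in WT replicate 1, 0.02 in D1, 0.12 in G2, 0.10 in H5, 0.12 in B9, 0.10 in H4 and 0.14 in C8, while the median of the 13543 genes over a mean of 1 CPM lay between 0.00 and 0.02. D1 stood apart, with 33 of 59 genes higher under ATRi against 48 to 55 in the other 6 lines. The summed level of the list went from 13200 to 13300 CPM in D1 and from 13100 to 14600 in WT replicate 1. In D1 the spindle, anaphase and kinetochore roles had negative medians (-0.06, -0.19 and -0.03), although *Cdc20*, *Espl1*, *Aspm* and *Cenpa* were 0.31 to 0.44 higher there. Sequenced a second time, WT replicate 1 gave a median of 0.15 in each multiplex, and the changes of single genes differed between runs by a median of 0.025, with 2 genes over 0.1.

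**Figure D4:**
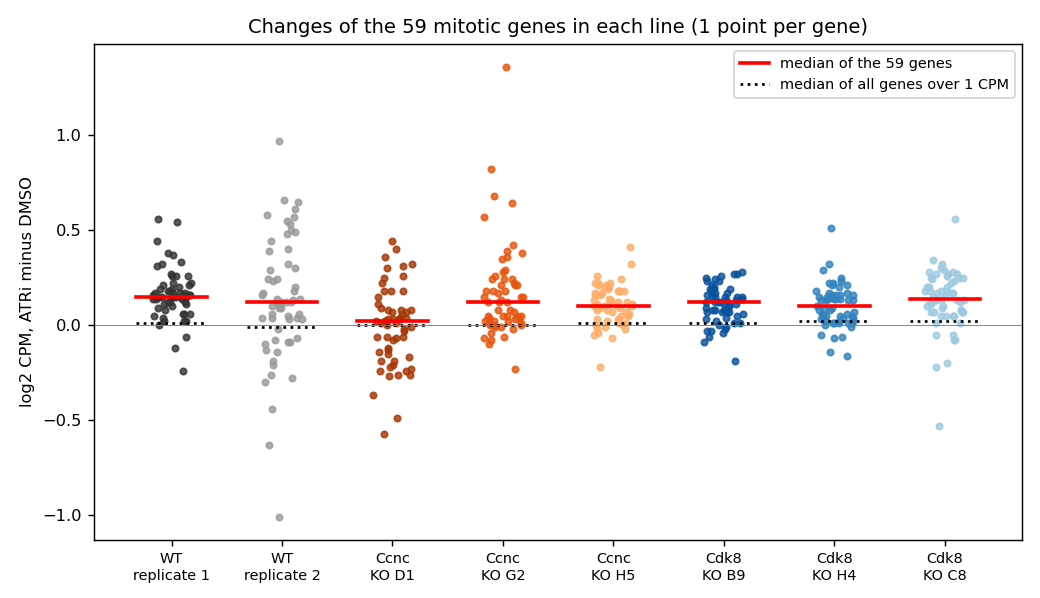
Log2 CPM under ATRi minus DMSO (y axis) of the 59 genes in each line (1 point a gene), with the median of the genes in red and that of all genes over 1 CPM dotted. The red lines lie between 0.10 and 0.15 except in D1 (0.02), and WT replicate 2, whose ATRi library was not used in the tests, has the widest scatter.

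Within the *Ccnc* KO clones, none of the 59 genes passed the test at 15 calls among 16776 genes (0.0894%). An unadjusted p under 0.05 (edgeR) was found for 13 members and for 2108 of all 16776 genes. With the clone as a block 2 rose, *Mki67* and *Aspm*, with 0.37% of all genes raised. *Nek2*, at its low counts, had the largest value (0.52 ± 0.25; edgeR, adjusted p = 0.426). *Mki67* changed by 0.46 ± 0.10 (edgeR, adjusted p = 0.131, and 0.0372 with the block) and *Aspm* by 0.45 ± 0.09 (0.12 and 0.0223). *Cenpf* and *Espl1* had 0.34 ± 0.08 and 0.27 ± 0.07. The median over the list was 0.06, and 0.11 without D1. DESeq2 called 5 genes, all raised, and 0.804% of all genes as raised.

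Within the *Cdk8* KO clones, 0 of 59 genes and 0 of 17162 genes passed (0%). An unadjusted p under 0.05 (edgeR) was found for 18 members and for 1020 of all 17162 genes. DESeq2 called 1 member, raised, with 0.0872% of all genes. With the clone as a block 21 rose, against 2.85% of all genes, and *Top2a* fell (-0.16 ± 0.03; 4.1% of all genes fell; edgeR, adjusted p = 0.014). Of these 22 genes, 20 were among the 29 called with the block over all lines, which include the same libraries. *Mki67* led (0.42 ± 0.05; edgeR, adjusted p = 0.000418 with the block), followed by *Aspm* (0.29 ± 0.04, 0.000998), *Ckap2* (0.24 ± 0.04, 0.00255), *Cdc20* (0.20 ± 0.04, 0.00636) and *Kif20a* (0.20 ± 0.04, 0.00749). The calls rest on the small spread among these 3 clones once their own levels are removed.

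No gene of the list was called as differing between genotypes in its response to ATRi. In *Ccnc* KO against WT, in *Cdk8* KO against WT and in *Ccnc* KO against *Cdk8* KO, the interaction test called 0 of 59 genes and 0% of all genes in each case (edgeR; DESeq2 called 0). Between the knockouts 1 member had an unadjusted p under 0.05 (edgeR), as had 361 of all 17630 genes. The first 2 comparisons share the WT libraries and have 1 WT ATRi library, so their intervals are wide. For *Nusap1*, a spindle microtubule stabiliser, the response in *Ccnc* KO minus that in WT was -0.40 ± 0.17 on the log2 scale (SE; edgeR, adjusted p = 1). *Ckap2l* and *Ndc80* followed with -0.28 ± 0.13 and -0.26 ± 0.13, and the low-count genes *Nek2* and *Kif11* had 0.46 ± 0.46 and -0.41 ± 0.36. In *Cdk8* KO against WT the largest values were -0.51 ± 0.44 for *Nek2*, -0.43 ± 0.22 for *Kif11*, -0.21 ± 0.13 for *Spc25*, -0.19 ± 0.11 for *Nusap1* and -0.18 ± 0.09 for *Top2a*. Between the knockouts they were 0.68 ± 0.34 for *Nek2*, 0.22 ± 0.13 for *Spc24*, 0.21 ± 0.27 for *Kif11*, -0.20 ± 0.15 for *Ube2c* and -0.19 ± 0.13 for *Nusap1*. The medians over the list were -0.09, -0.05 and -0.05, against 0.006, -0.001 and -0.001 over all genes. A difference in the response of this size was not detectable here, and the tests do not show that the genotypes respond alike.

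Few genes of the list differed from WT in the knockouts by the test, although most were slightly lower. Here edgeR and DESeq2 count the 2 libraries of a line as separate samples. Their p-values for genotype take no account of this pairing. With the line as a random effect (limma voom), 0 of 59 genes were called in either knockout. In that fit 1028 of all 18577 genes rose and 857 fell in *Ccnc* KO, and 112 and 125 of 18721 in *Cdk8* KO. With edgeR, 16 of 59 genes in *Ccnc* KO and 19 of 59 in *Cdk8* KO were above WT, against 50.7% and 51.7% of all genes. In DMSO libraries alone 26 and 23 of the 59 were above WT, with medians of -0.02 and -0.03 (51.2% and 51.3% of all genes). In ATRi libraries alone, which hold 1 WT library, 6 and 12 were above it (50.4% and 53.2% of all genes). Without WT replicate 1 the counts were 24 in *Ccnc* KO and 18 in *Cdk8* KO (50.7% and 51.9% of all genes). In *Ccnc* KO against WT, 1 of 59 genes fell and 0 rose, while 5.28% of 18577 genes fell and 7.01% rose, and the list's median was -0.06 (0.003 over all genes). The gene was *Hmmr*, at 180 CPM in WT replicate 1 and 179 in WT replicate 2 in DMSO and 161, 147 and 172 in D1, G2 and H5. Under ATRi it was at 232 in WT replicate 1 and 164, 188 and 197 in the clones. The clones lay below WT in both treatments, by -0.23 ± 0.07 (edgeR, adjusted p = 0.0383). The call was lost with the clone as a random block (limma voom, adjusted p = 0.0519), in DMSO libraries alone (edgeR, 0.314), in ATRi libraries alone (0.11), without WT replicate 1 or 2, without G2, and with WT replicate 2 under ATRi included (0.649), where it stood at 138 CPM.

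*Mki67* and *Aspm* were lower in *Ccnc* KO by values that missed the threshold, -0.26 ± 0.09 and -0.24 ± 0.08 (edgeR, adjusted p = 0.0614 and 0.0786). DESeq2, likewise without the pairing, called both, with 7.21% of all genes lowered. In DMSO, *Mki67* stood at 209 and 258 CPM in WT and at 213, 159 and 195 in D1, G2 and H5, and *Aspm* at 106 and 129 against 90.2, 86.9 and 109. For both genes WT and KO overlapped, and the 2 WT replicates differed by about as much as the genotypes. *Ckap2l*, a spindle protein of neural progenitors, had -0.17 ± 0.07 and *Kif11* -0.35 ± 0.18 (adjusted p = 0.135 and 0.227, edgeR).

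In *Cdk8* KO against WT, 0 of 59 genes passed, against 4.31% of 18721 genes (edgeR). An unadjusted p under 0.05 (edgeR) was found for 9 members and for 3995 of all 18721 genes. DESeq2 called 3 members as lowered, *Gtse1*, *Kif22* and *Sgo1*, with 4.68% of all genes lowered. *Gtse1* had the smallest p of the list, at 342 and 393 CPM in WT and 309, 323 and 279 in B9, H4 and C8 in DMSO, and at 375 in WT replicate 1 and 339, 351 and 319 in the clones under ATRi. Within each treatment the groups did not overlap, with a log2 fold change of -0.23 ± 0.06 (edgeR, adjusted p = 0.0759). *Spc24* had -0.22 ± 0.07 (adjusted p = 0.105, edgeR) and *Cdca2*, a phosphatase-targeting protein of anaphase chromosomes, -0.15 ± 0.05 (adjusted p = 0.1), and the low-count *Nek2* and *Kif11* -0.41 ± 0.21 and -0.19 ± 0.12. Primitive endoderm markers moved with genotype in the same libraries, summing to 376 to 632 CPM in *Cdk8* KO, 222 to 364 in *Ccnc* KO and 132 to 151 in WT, while the stem cell markers summed to 3460 to 4580, 4260 to 4840 and 4750 to 5120 CPM. Their part in these values was not tested.

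**Figure D5:**
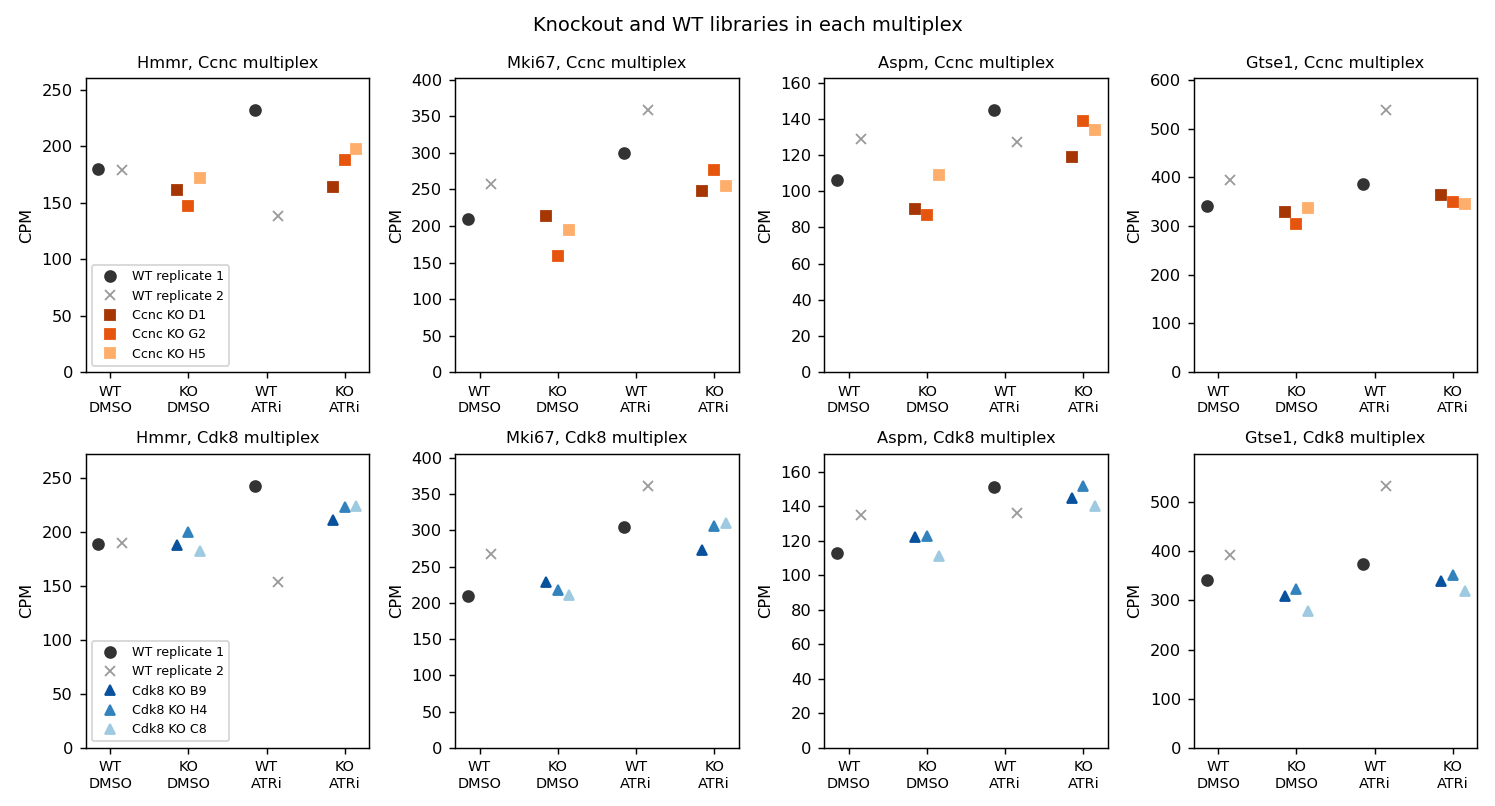
CPM (y axis, from 0) of *Hmmr*, *Mki67*, *Aspm* and *Gtse1* in WT and KO libraries by treatment, in the *Ccnc* multiplex (top) and the *Cdk8* multiplex (bottom), 1 point a library. *Hmmr* in the *Ccnc* KO clones (147 to 172 in DMSO) lies below both WT libraries, *Gtse1* in the *Cdk8* KO clones likewise, and under ATRi WT replicate 2 (crosses) lies below WT replicate 1 in *Hmmr* and *Aspm* and above it in *Mki67* and *Gtse1*.

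A smaller share of other gene groups was called under ATRi over all lines. The 59 genes and these lists were chosen with earlier results of these data known, so the shares only describe the lists. Of the 30 other mitotic spindle and division genes, 5 rose and 1 fell with a median of 0.03 (6 and 1 with the block), and the 3 with the largest called changes were *Psrc1* (0.21 ± 0.06; edgeR, adjusted p = 0.048), *Numa1* (0.20 ± 0.04, 0.0111) and *Mad1l1* (-0.19 ± 0.04, 0.0129), which encode proteins of the spindle, the spindle pole and the checkpoint. Of 21 constitutive centromere and KMN genes, 0 were called (median 0.02; 1 with the block). Of 8 condensin genes 1 rose in each fit, *Ncapg2* (0.26 ± 0.04; edgeR, adjusted p = 0.00337), and of 15 genes of the anaphase-promoting complex 1, *Cdc16* (0.15 ± 0.03, 0.0148; 2 with the block). The 13 genes of the MuvB, B-MYB, E2F4 and NF-Y regulators had 0 calls (median 0.06; 2 with the block). Of 28 G1/S genes 1 rose, *Ccne2* (0.27 ± 0.06; edgeR, adjusted p = 0.0186), with a median of 0.07. Above 0 were 24 of the 28, against 53 of the 59 members and 51.8% of all genes. With the block 6 of these 28 genes rose, which are *Ccne2*, *E2f2*, *Uhrf1*, *Mcm2*, *Mcm5* and *Mcm6*, genes of S phase entry and replication licensing (6.27% of all genes rose in that fit). Among the cell type markers, *Sox2* rose (0.14 ± 0.04; edgeR, adjusted p = 0.043), and none of the 10 primitive endoderm, 8 tested fibroblast or 5 tested neuroectoderm markers was called without the block. With it, the endoderm markers *Lama1* and *Sox7*, the neuroectoderm marker *Nes* and the stem cell markers *Sox2* and *Klf4* rose and the stem cell markers *Nanog* and *Fgf4* fell (edgeR, adjusted p = 0.00446, 0.0462, 0.0173, 0.00849, 0.0222, 0.0282 and 0.018). The part of these markers in the members' changes was not tested. The difference between these lists and the 59 genes was not tested.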

How the data were processed

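Libraries of mESC mRNA were made by poly(A) selection with a directional kit and read as single ends. The authors trimmed the reads with Trimmomatic 0.38, aligned them to GRCm38.p6 with HISAT2 2.1.0 and counted them by strand with featureCounts 2.0.1, set to ignore reads marked as duplicates. The deposited counts per gene and lane are not normalized. The authors' rlog tables, made with DESeq2, were not used here. Reads lost or shared between similar genes cannot be restored from counts.

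From the 40 lane samples, 2 lanes were summed for each of 20 libraries, and the WT libraries of both multiplexes were summed further (16 libraries) for the tests over all lines and between knockouts. Library totals were 30899823 to 67274049, which sets counting error well under the differences between lines except for genes of a few CPM. Counts were tested with edgeR 4.0.16 in R 4.3.3 (quasi-likelihood test, TMM, filterByExpr), with genotype beside treatment, and KO against WT within a multiplex with treatment in the model. Adjusted p-values are Benjamini-Hochberg over all genes tested, with a threshold of 0.05. CPM were TMM-normalized, with a prior count of 2 on the log2 scale. The paper's text gives no DESeq2 formula. The scripts were checked on simulated data.

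Both libraries of a clone were made from the same cell line, so they are paired. Their deviations from the group means correlated across genes at 0.08 to 0.86 in the 6 clones. The line was therefore also fitted as a block, and for KO against WT as a random effect with limma 3.58.1 (voom). The correlations did not bear out the pair of G2. Its DMSO library correlated at 0.08 with its own ATRi library and at 0.12 with that of another *Ccnc* KO clone. Lanes of a library differed by 1.31 to 1.43 in chi-square per degree of freedom, WT reruns by 1.75 to 2.16 and replicates by 6.06 to 158. DESeq2 1.42.0, RLE and upper quartile scaling, a filter of 1 count, GC and length offsets and leaving out each line were the alternatives.

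The members, their roles, the other gene lists and the motifs were chosen with earlier results of these data known. Named are *Ccnb1*, the 12 members with the largest change over all lines, the 5 with the largest in each other comparison, the highest member per length of each role, and in other lists at most 3 called genes. Members named beyond this were chosen after their values were seen. Gene positions are from GENCODE M21 (GRCm38), which held all 55536 identifiers, and promoter sequences from RefSeq. Annotated pseudogenes share 50-base stretches with *Ccnb1*, *Plk1*, *Kif4* and *Kif22* (under 1% of stretches in the last 2), and other genes overlap *Foxm1*, *Ccnf*, *Top2a* and *Ckap5*, whose counts are uncertain to that extent.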

Additional observations from a re-analysis of the deposited data

Results flagged for a closer look

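WT replicate 2 under ATRi is the library that the tests leave out, and it holds a signal above the DMSO libraries. The 59 genes summed to 14900 CPM in it, against 12200 to 13200 in the 8 DMSO libraries and 14600 in WT replicate 1 under ATRi. In this library 22 genes stood above all 15 other libraries and 7 below them, 37.3% and 11.9% of the list, where 21.7% and 19.3% of the 13543 genes over 1 CPM did so. *Ube2c* was at 543 CPM (258 to 382 in the other libraries), *Gtse1* at 554 (278 to 395), *Cdca3* at 434 (235 to 302), *Pttg1* at 246 (118 to 167), *Plk1* at 374 (242 to 300) and *Tpx2* at 540 (359 to 446). *Foxm1* was at 191 (120 to 152), *Ckap2l* at 143 (80.3 to 116) and *Troap* at 102 (55.8 to 74.8). These genes encode early and late mitotic regulators. The 7 genes below all 15 other libraries were *Nek2*, *Spc24*, *Spc25*, *Bub1b*, *Top2a*, *Bub1* and *Kif14*, which are mitotic genes too. *Bub1b* was at 312 CPM (334 to 432 in the other libraries) and *Top2a* at 1200 (1290 to 1660). Others of the list, such as *Hmmr* at 150 CPM against 185 in the same replicate in DMSO, were lower. The cause was not tested.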

How the results depend on the processing

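Over all lines under ATRi, the count of called genes was 20, with 390 of all 19066 genes raised and 472 lowered. It became 31 with the replicate block and GC and length offsets, where 1886 of all 19066 genes rose and 1620 fell. It became 11 with WT replicate 2 under ATRi included (3.26% of all genes), where *Hmmr*, *Arhgap11a*, *Ckap2*, *Cenpa* and *Ect2* were among those lost. Leaving out a line gave 6 to 25 (6 without G2, 6 without WT replicate 1, 11 without H5, 12 without B9), and *Mki67*, *Aspm*, *Cenpf* and *Cdc20* were called in each of these 8 fits. The 25 were called without D1, where 385 of all 19182 genes rose and 386 fell. With the replicate block the range was 19 to 35, with 17 genes called in each, an alternative chosen after seeing the data. How many of all genes were called in every such fit, with or without the block, was not counted. The 19 were called without WT replicate 1, where 610 of all 18884 genes rose and 901 fell. The 35 were called without D1, where 1668 of all 19182 genes rose and 1695 fell. The list's median stayed between 0.08 and 0.13 with and without the block.

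Within *Ccnc* KO clones the count (0) became 5 with a filter of 1 count, where 276 of all 28488 genes rose and 186 fell. It became 5 with DESeq2 (118 and 74 of 14679) and 2 with GC and length offsets (28 and 14 of 16776). With the replicate block it was 2 (62 and 47), and with both 5 (191 and 136). Within *Cdk8* KO clones it became 1 with DESeq2 (14 and 34 of 16055). It was 22 with the replicate block (489 and 704 of 17162) and 29 with the block and offsets (1106 and 698). For *Ccnc* KO against WT the median in ATRi libraries alone, with 1 WT library, was -0.09. The count (1) became 3 with a filter of 1 count, where 1700 of all 29492 genes rose and 1268 fell. It became 3 with DESeq2 (1386 and 1219 of 16912) and 7 with the offsets (1400 and 1307 of 18577), all lowered. It was 0 with the replicate block and 0 in DMSO libraries alone (median -0.02). Without single lines it was 0 to 4, with medians of -0.07 to -0.03. The 4 were called without D1, where 1423 of all 18418 genes rose and 1217 fell. For *Cdk8* KO against WT the count (0) became 1 with a filter of 1 count, where 651 of all 29765 genes rose and 479 fell. It became 3 with DESeq2 (937 and 798 of 17069) and 2 with the offsets (400 and 445 of 18721, list's median -0.07), all lowered. It was 0 to 1 without single lines (medians -0.06 to -0.03). The 1 was called without H4, where 704 of all 18586 genes rose and 622 fell.

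For the difference in response, the median with WT replicate 2 under ATRi included became -0.02 in *Cdk8* KO against WT and -0.05 in *Ccnc* KO against WT (-0.09), and that between knockouts lay between -0.07 and 0.00 without single lines, 0.00 without D1. Changes of sign were seen in low-count or uncalled genes: *Nek2* over all lines (-0.02 with the block and WT replicate 2 under ATRi, -0.06 with the block without G2), *Nek2* in *Cdk8* KO against WT (-0.64 to 0.28 without single lines, 0.28 without WT replicate 1) and in its response (0.16 with WT replicate 2 under ATRi), and between knockouts *Nusap1* (-0.30 to 0.00, the latter without D1) and *Kif11* (-0.05 to 0.49, the former without G2). Interactions kept 0 called members under the replicate block. The causes were not tested. Low counts limit *Nek2* and *Kif11*, and 1 WT library under ATRi limits the interaction tests.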
